A study of Mus musculus with 10 samples.

Results

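The 10 genes described here, Meg3, Rian, Mirg, H19, Igf2, Dlk1, Peg3, Grb10, Igf2r and Plagl1, are imprinted regulators of growth. They were chosen by name and not by their values, though with earlier results of these data known. All 10 are among the 23337 genes of the deposited table. The table holds reads per gene from right atria of adult mice, 4 labelled control and 6 labelled Tbx5 mutant. Tbx5 encodes a T-box transcription factor of the atrium, and in this model its exon 3 is deleted by a Cre that tamoxifen activates and that, being driven from R26, is active in all cell types. Tissue was taken 1 week after 3 daily injections of 0.167 mg tamoxifen, at an age given as 8 to 10 weeks in the sample labels and as 6 to 8 weeks in the extraction protocol. The strain is given as mixed in all mice. The tamoxifen schedule is recorded alike for controls and mutants. The labels do not give the alleles of the control mice, so that effects of the tamoxifen-activated Cre cannot be told apart from the loss of Tbx5.

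An imprinted gene is read mainly from either the maternal or the paternal chromosome, according to DNA methylation laid down in the germ line. Paternally expressed genes such as Igf2, Dlk1, Peg3 and Plagl1 and maternally expressed genes such as H19, Meg3 and Igf2r lie in clusters that share control regions, and many are abundant in the fetus and decline after birth. IGF2 is a growth factor, IGF2R carries it to the lysosome, GRB10 dampens signalling of the insulin and IGF receptors, and PEG3 and PLAGL1 are zinc-finger transcription factors. The reads were not separated by parental copy, so no value below bears on which copy was read.

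Some library facts touch every value. Total counts were between 5703775 and 7095141 reads. The ribosomal gene Rn45s took 38.9% of the reads of mutant M3 and between 0.268% and 1.49% in the other libraries, so Peg3 and Grb10 are given with and without M3. Of the other called genes with values below, Tet2 alone was no longer called without M3 (log2 fold change -0.57, a fold under 1.5). The controls labelled male had 7850 to 10149 Xist reads and 0 Ddx3y reads, whereas the controls labelled female had 5 to 14 Xist reads and 1124 to 1319 Ddx3y reads. The sex labels of the 4 controls therefore go against their reads, while those of the 6 mutants did not. Whole-gene Tbx5 reads, which do not resolve exon 3, were between 1195 and 1505 in controls and between 1010 (M3) and 3524 in the libraries labelled Tbx5 mutant. Scaled to depth, Tbx5 was at 184 to 224 CPM in controls and at 275 to 475 CPM in the mice labelled Tbx5 mutant. The groups did not overlap, as for 22.7% of all tested genes. Tbx5 was called higher in the mice labelled Tbx5 mutant (log2 fold change 0.94, adjusted p = 0.000495 by edgeR). That goes against the labels, so the groups are named by their labels throughout and every direction is relative to them. Of 5 atrial cardiomyocyte genes (Myl7, Myl4, Nppa, Sln, Myh6), all 5 were abundant, with summed levels of 61113 to 71895 CPM in controls and 40716 to 55105 CPM in mutants. CPM is the read count scaled to a library of 1000000 reads, with library sizes adjusted by the trimmed mean of M-values (TMM).

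The genes lie in 6 regions of the mouse genome (GRCm38, GENCODE annotation). Dlk1 (chr12:109452823-109463336), Meg3 (chr12:109541001-109571726), Rian (chr12:109603940-109661716) and Mirg (chr12:109729764-109749460) follow each other on the plus strand, Dlk1 as a coding gene and the other 3 as long noncoding RNAs that host small RNAs. H19 (chr7:142575529-142578143), a noncoding RNA, and Igf2 (chr7:142650766-142666816) share a cluster on the minus strand. Peg3 (chr7:6703892-6730431), Grb10 (chr11:11930508-12038683) and Igf2r (chr17:12682406-12769664) are coding genes on the minus strand, and Plagl1 (chr10:13060504-13131694) is a coding gene on the plus strand.

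The promoters of Peg3 and Grb10 are shown because these genes differed between the groups. Each sequence runs 5′ to 3′ from 250 bases before to 50 bases after the start site, from RefSeq on GRCm38.p6, with CpG dinucleotides, the sites of DNA methylation, in capitals. The Peg3 promoter is chr7:6730370-6730669, and Grb10 has an entry at chr11:12037371-12037670 and a second at chr11:12027922-12028221, all on the minus strand.
Peg3: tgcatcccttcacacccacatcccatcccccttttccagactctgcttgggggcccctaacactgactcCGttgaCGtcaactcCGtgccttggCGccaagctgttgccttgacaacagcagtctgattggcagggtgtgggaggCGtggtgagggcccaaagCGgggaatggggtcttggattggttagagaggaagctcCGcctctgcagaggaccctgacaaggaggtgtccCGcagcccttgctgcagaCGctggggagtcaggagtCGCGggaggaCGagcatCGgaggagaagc
Grb10 promoter 1: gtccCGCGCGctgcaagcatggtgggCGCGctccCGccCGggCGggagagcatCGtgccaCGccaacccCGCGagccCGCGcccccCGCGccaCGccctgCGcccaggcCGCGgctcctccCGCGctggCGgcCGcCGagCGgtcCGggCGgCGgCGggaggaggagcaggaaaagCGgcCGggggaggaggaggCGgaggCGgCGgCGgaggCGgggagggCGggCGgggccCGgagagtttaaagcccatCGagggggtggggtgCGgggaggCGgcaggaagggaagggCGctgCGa
Grb10 promoter 2: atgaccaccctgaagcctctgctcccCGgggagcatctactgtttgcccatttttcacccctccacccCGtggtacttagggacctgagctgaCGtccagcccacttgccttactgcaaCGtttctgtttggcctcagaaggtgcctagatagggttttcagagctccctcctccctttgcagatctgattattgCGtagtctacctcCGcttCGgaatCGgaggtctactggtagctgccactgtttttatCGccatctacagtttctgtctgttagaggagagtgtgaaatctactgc

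The Peg3 promoter held 13 CpG. Grb10 promoter 1 held 45, and 98.1% of all RefSeq mouse promoters of this length held fewer. Grb10 promoter 2 held 9, against a median of 7 over all promoters. The T-box half-site GGTGTGA was searched on both strands. It occurred in the Peg3 promoter on the minus strand of the window, with its first base 241 bases before the start site, and it was found in neither Grb10 window. The palindrome GGGGCCCC, added to the search after the Peg3 promoter had been read, occurred 201 bases before that start site. Of all 32851 promoters, 3.98% held GGTGTGA and 1.08% held GGGGCCCC. Among the other members with an entry (H19 had none), only Meg3 held GGTGTGA, at 145 bases before the start of its second promoter on the plus strand and at 99 bases on the minus strand. A match is a run of letters and does not show that a factor binds.

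In the comparison of mutants with controls, calls needed a fold change over 1.5 in either direction together with an adjusted p (Benjamini-Hochberg) under 0.05 in the quasi-likelihood test of edgeR. Of the 13084 genes with enough reads to be tested, 15.7% were called, 7.16% lower and 8.54% higher in the mutants, and 31.3% had an adjusted p under 0.05 whatever their fold. Of the 10 imprinted genes, 9 were tested, 1 was called lower, 1 was called higher and 7 were not called. The median log2 fold change of the 9 was -0.08, beside -0.005 over all tested genes. In whole tissue, fewer cells of a type and less RNA per cell cannot be told apart.

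Peg3, a zinc-finger factor read from the paternal copy, was at 251, 249, 270 and 190 CPM in controls M1, M2, F1 and F2. In mutants F1, F2, F3, M1, M2 and M3 it was at 131, 104, 106, 145, 84.3 and 84.4 CPM. Every mutant was below every control, and the groups did not overlap, as was also the case for 22.7% of all tested genes. Peg3 fell 2.2-fold (log2 fold change -1.14 ± 0.15 SE, adjusted p = 0.000121 by edgeR), and the two-sided exact permutation test over the 210 splits of 4 against 6 libraries gave p = 0.00952, the smallest it can give. Without M3 the log2 fold change was -1.08 (adjusted p = 0.000258 by edgeR).

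Grb10, an adaptor that restrains insulin and IGF signalling, moved the other way. It was at 94, 103, 113 and 107 CPM in controls M1, M2, F1 and F2, and at 163, 164, 151, 154, 190 and 173 CPM in mutants F1, F2, F3, M1, M2 and M3. The lowest mutant was above the highest control, and 22.7% of all tested genes likewise had groups without overlap. Both groups were narrow, with an SD of 7.86 CPM in controls and 14.3 CPM in mutants. Grb10 rose 1.59-fold (log2 fold change 0.67 ± 0.091 SE, adjusted p = 0.000123 by edgeR; exact permutation p = 0.00952). Without M3 the log2 fold change was 0.66 (adjusted p = 0.000392 by edgeR). The fold sits just above the threshold of 1.5.

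**Figure D1:**
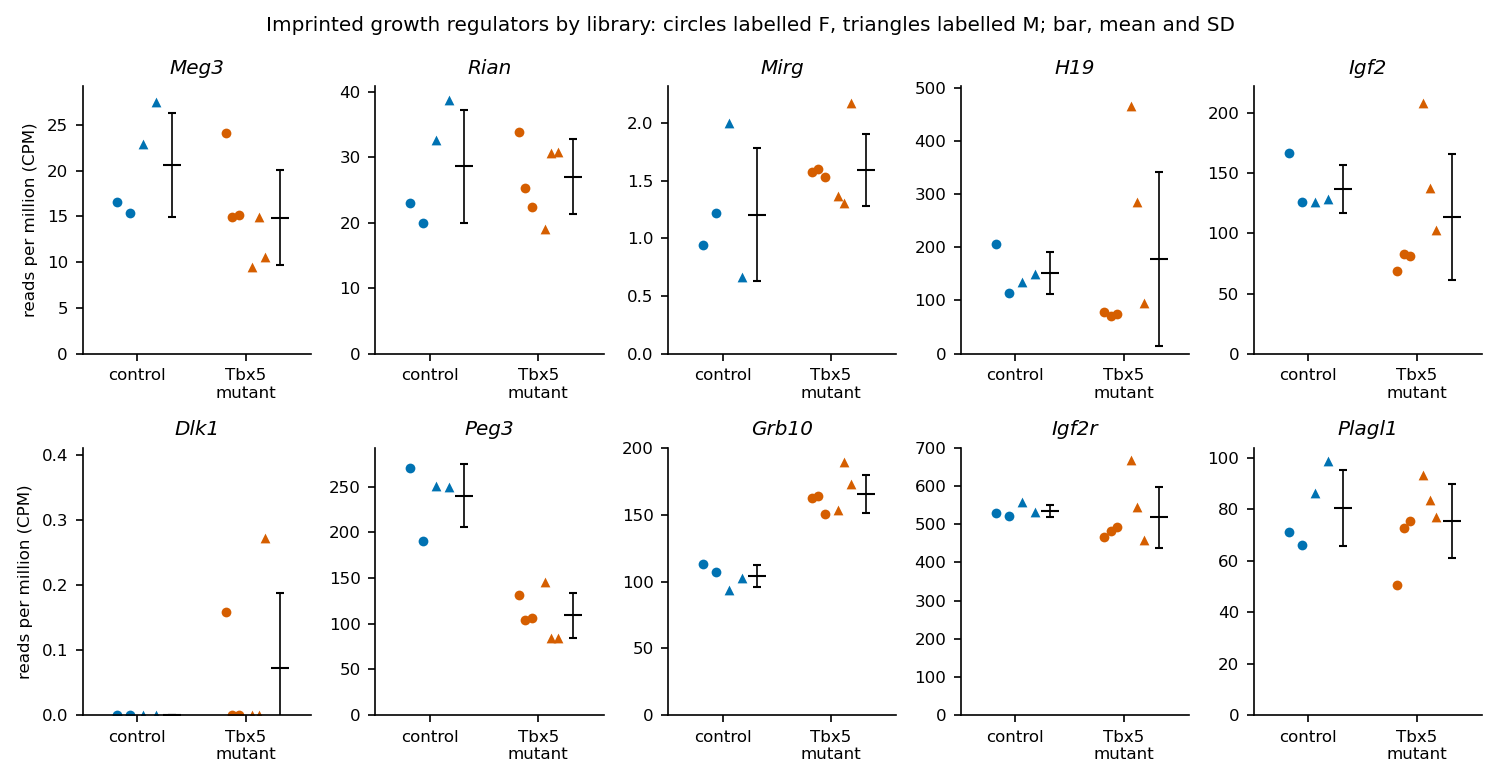
Level of each of the 10 imprinted genes in CPM (vertical axes, each from 0) in 4 control (blue) and 6 Tbx5 mutant (orange) libraries, with the mean and SD as bars; circles are labelled female and triangles male. The groups are apart for Peg3 (190 to 270 against 84.3 to 145 CPM) and Grb10 (94 to 113 against 151 to 190 CPM) and overlap for the others.

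The ligand Igf2 and the noncoding RNA H19 of the same cluster varied more among the mutants than between the groups. H19 was at 135, 150, 206 and 114 CPM in controls M1, M2, F1 and F2. In the mutants it was at 77.4, 70.4 and 74 CPM in F1, F2 and F3, and at 467, 286 and 94.8 CPM in M1, M2 and M3. Mutants F1, F2, F3 and M3 lay below every control and the other 2, M1 and M2, above every control. The difference was not called (log2 fold change 0.24 ± 0.50 SE, adjusted p = 0.747 by edgeR), and without M1 it turned to -0.34 (adjusted p = 0.507).

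Igf2, the growth factor gene, was at 126, 129, 167 and 126 CPM in controls M1, M2, F1 and F2, at 68.5, 82.5 and 81.4 CPM in mutants F1, F2 and F3, and at 209, 138 and 103 CPM in mutants M1, M2 and M3. The same 4 mutants were below every control, and M1 alone was above all. The difference was not called (log2 fold change -0.27 ± 0.25 SE, adjusted p = 0.446 by edgeR). Without M1 it was -0.54, with an adjusted p of 0.028 and a fold under 1.5.

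Within libraries, the ratio of H19 to Igf2 reads was 0.91 to 1.24 in controls and 0.853 to 2.24 in mutants. The 2 mutants with the highest H19 thus had also the most H19 per Igf2 read, and the log2 ratio differed by 0.19 between the groups (exact permutation p = 0.619). After the means of the groups were taken out, H19 was the second of 9982 genes by likeness to Igf2 over the 10 libraries (Pearson r = 0.955). The first was Zfp608 (0.958), and Mal (0.931), Zfp217 (0.923) and Il18r1 (0.922) came next. These correlations are descriptions over 10 points that share library depth and scaling.

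**Figure D2:**
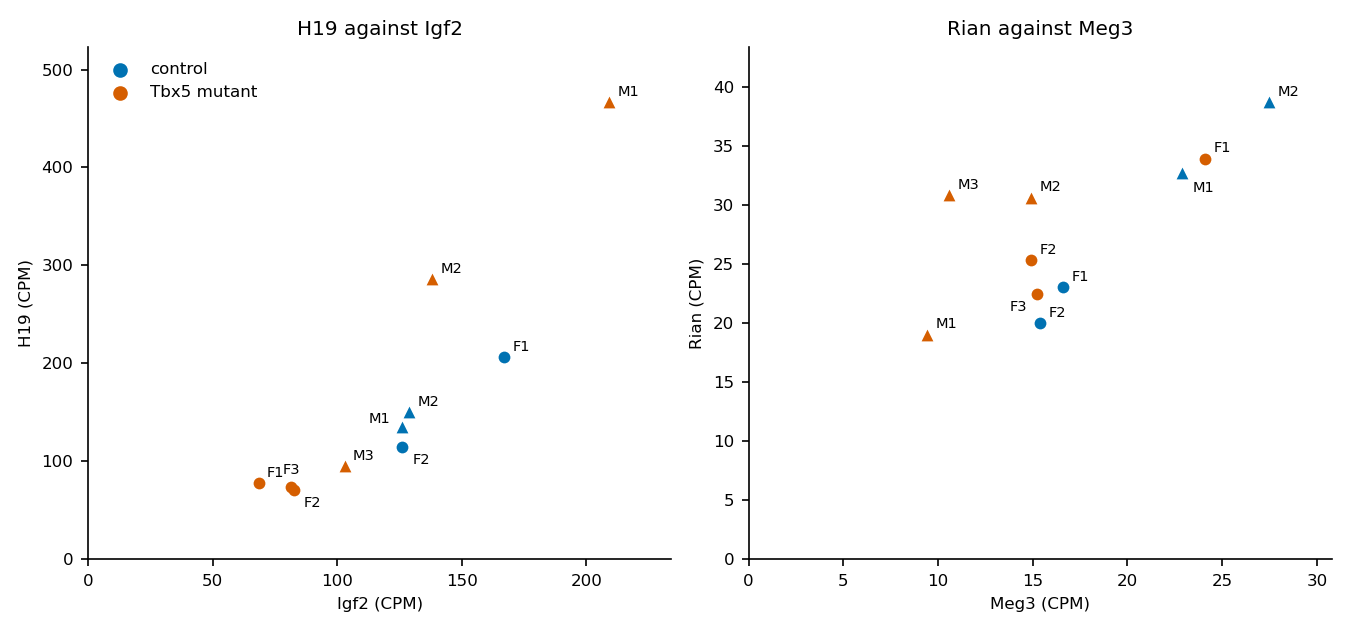
CPM of H19 against Igf2 (left) and of Rian against Meg3 (right), a point per library, control blue and Tbx5 mutant orange, circles labelled female and triangles male. H19 and Igf2 run together from mutants F1, F2 and F3 (H19 at 70.4 to 77.4 CPM) up to mutant M1 (467 CPM), and the 4 controls lie in a line of Rian against Meg3 with several mutants above it.

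The receptor Igf2r, which removes IGF2, was at 557, 532, 530 and 522 CPM in controls M1, M2, F1 and F2. The mutants ranged from 458 to 669 CPM with a median of 487, and M1 was again the highest. Mutants F1, F2, F3 and M3 were again below all controls and M1 was above them, and no change was called (log2 fold change -0.046 ± 0.11 SE, adjusted p = 0.782 by edgeR). The ratio of Igf2 to Igf2r reads was 0.226 to 0.314 in controls and 0.147 to 0.312 in mutants, a log2 difference of -0.31 (exact permutation p = 0.219). The antisense transcript Airn, which overlaps Igf2r, was at 26.4 to 33.6 CPM in controls and 18.3 to 31.7 CPM in mutants (log2 fold change -0.42 ± 0.14 SE, adjusted p = 0.0385 by edgeR, fold under 1.5). The counting is not stated to use strand, so reads from Airn and Igf2r cannot be told apart where they overlap.

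Plagl1, a zinc-finger factor that regulates other imprinted genes, was at 66.1 to 98.6 CPM in controls and 50.6 to 93.4 CPM in mutants. The ranges overlapped almost wholly (log2 fold change -0.094 ± 0.15 SE, adjusted p = 0.663 by edgeR). Its relative Plag1, an activator of Igf2 in other tissues, was at 19.7 to 24.8 CPM in controls and 9.26 to 19.7 CPM in mutants and was called lower (log2 fold change -0.77 ± 0.18 SE, adjusted p = 0.00495 by edgeR). Plagl2 was not called (-0.31, adjusted p = 0.268).

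In the Dlk1 to Mirg cluster, the coding gene had almost no reads and the noncoding RNAs were low. Dlk1, a membrane-bound ligand of the Notch family, had 0 reads in all 4 controls and in 4 mutants, and 1 read each in mutants F1 and M3. It was not tested, and a count of 0 allows a share of up to 5.16e-05% of reads in the shallowest control. Meg3 was at 22.9, 27.5, 16.6 and 15.4 CPM in controls M1, M2, F1 and F2. In mutants F1, F2, F3, M1, M2 and M3 it was at 24.1, 14.9, 15.2, 9.43, 14.9 and 10.6 CPM, so 5 of 6 mutants were below every control and F1 was among the highest. The difference did not pass the threshold (log2 fold change -0.45 ± 0.23 SE, adjusted p = 0.149 by edgeR). It passed without mutant F1 (-0.64, adjusted p = 0.0247). With sex as a covariate and the control labels exchanged, as their Xist and Ddx3y reads have it, the value was -0.46 with an adjusted p of 0.043 and a fold under 1.5. It shrank to -0.084 (adjusted p = 0.807) once the trend of fold change with transcript length was removed.

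Rian, which hosts small nucleolar RNAs, was at 20 to 38.7 CPM in controls and 19 to 33.9 CPM in mutants (log2 fold change -0.085 ± 0.19 SE, adjusted p = 0.765 by edgeR). Mirg, which hosts microRNAs, had 4 to 14 reads per control and 8 to 12 per mutant (log2 fold change 0.35 ± 0.32 SE, adjusted p = 0.426). The proportions of these 3 RNAs were compared within libraries. There were 1.43, 1.41, 1.39 and 1.3 reads of Rian per read of Meg3 in controls M1, M2, F1 and F2, and 1.41, 1.7, 1.48, 2.02, 2.06 and 2.9 in mutants F1, F2, F3, M1, M2 and M3. All mutants but F1 exceeded every control. The log2 ratio was higher by 0.43 in mutants (exact permutation p = 0.0286), which did not pass after adjustment over the 6 ratios tested (0.0952). Mirg to Meg3 differed by 0.94 (p = 0.0476, adjusted 0.0952, exact permutation), on few Mirg reads. The ratio of Mirg to Rian differed by 0.51 (exact permutation p = 0.19). The longest annotated transcripts have 14548 bases for Meg3, 8089 for Rian and 3822 for Mirg, and the ratios were not corrected for the trend with transcript length. The highest ratio of Rian to Meg3 was in M3, the library with 38.9% Rn45s reads. The part of transcript length in these ratios was not tested. The ratio of Dlk1 to Meg3 was counted among the 6 but is not given, since Dlk1 had at most 1 read.

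By likeness to Meg3 over the libraries, after the group means were taken out, Rilp (r = 0.958), Cox11 (0.939), Vangl1 (0.933), 2810021J22Rik (0.922) and Nap1l1 (0.898) came first, and Rian was at rank 95 of 9982 (0.73). Of the 65 microRNA and small nucleolar RNA genes between Dlk1 and Dio3 or inside H19 and Igf2, none was tested, and the highest count of any in a library was 6 reads.

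Levels of different genes were compared per kilobase of the longest annotated transcript. In controls the order was H19 at 66.3 ± 17.2 CPM per kb (SD, n = 4), Igf2r at 60.2 ± 1.68, Igf2 at 29 ± 4.23, Peg3 at 27.6 ± 4.01, Grb10 at 20.6 ± 1.55, Plagl1 at 15.3 ± 2.82, Rian at 3.54 ± 1.07, Meg3 at 1.42 ± 0.386, Mirg at 0.315 ± 0.151 and Dlk1 at 0. The ranges of the libraries overlapped between H19 and Igf2r and between each pair of neighbours from Igf2 to Plagl1. Rian, Meg3 and Mirg were apart from each other and from the genes above them. In mutants (n = 6) Grb10 rose to 32.8 ± 2.83 CPM per kb, above the mean of Igf2 (24.1 ± 11.1), and Peg3, at 12.6 ± 2.83, came below Plagl1 (14.3 ± 2.71). With all annotated exon bases as the length, Igf2 stayed above Grb10 in mutants (19.9 and 18.2), and in controls Rian (1.1 to 2.12) and Meg3 (0.853 to 1.52) overlapped.

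**Figure D3:**
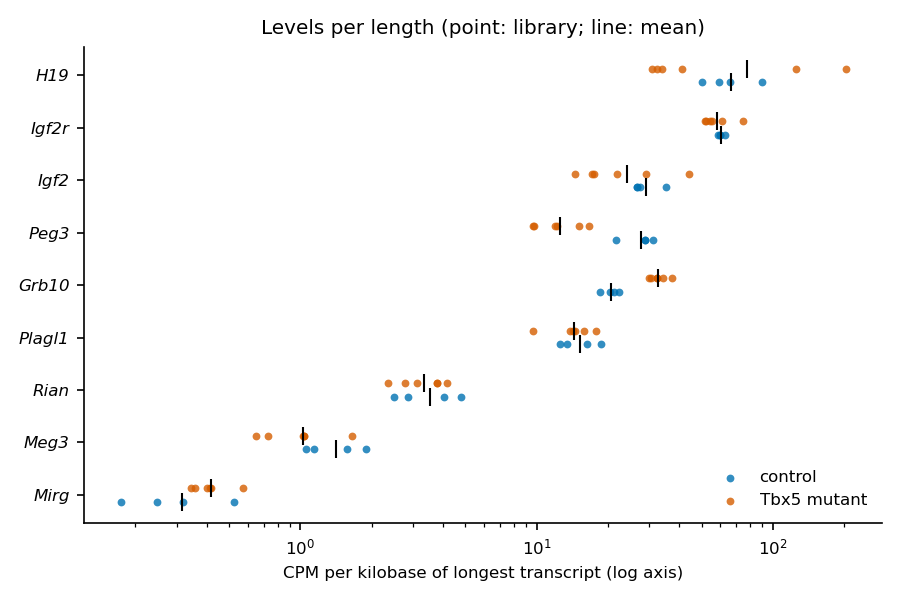
CPM per kilobase of longest transcript on a log axis for 9 imprinted genes, a point per library (control blue, Tbx5 mutant orange) and a line at the mean; Dlk1 is left out because it was at 0 in most libraries. In controls H19 (66.3) and Igf2r (60.2) lead and Mirg (0.315) is lowest.

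The effect of genotype was compared between sexes, since H19 and Igf2 in the mutants differed with the label. H19 was at 70.4 to 77.4 CPM in the 3 mutants labelled female and at 94.8 to 467 CPM in the 3 labelled male, and Igf2 at 68.5 to 82.5 and 103 to 209 CPM. No member passed an adjusted p of 0.05 for the interaction of genotype and sex in edgeR, with the sex labels as given or with those of the controls exchanged. With the labels as given 38 of 13084 genes passed and with the controls exchanged 1. At an unadjusted p under 0.05 there were 4 of 9 members in each, beside 10.4% of all tested genes with the labels as given and 9.09% with the controls exchanged. They were H19, Igf2, Meg3 and Rian with the labels as given, and H19, Igf2, Rian and Plagl1 with the controls exchanged. H19 and Igf2 had prompted the comparison, so their place in this count is no separate evidence. Genes of 1 cluster also varied together (r = 0.955 for H19 with Igf2 and 0.73 for Rian with Meg3). So did Igf2r (0.86) and Plagl1 (0.61), on other chromosomes, with Igf2. Peg3 (0.20), Grb10 (0.19), Rian (-0.41) and Meg3 (-0.68) followed Igf2 little or ran against it. The members are thus not independent, and no excess of members is read from the count. H19 had a log2 interaction of 2.11 ± 0.64 SE (adjusted p = 0.245) as labelled and 1.78 ± 0.64 SE (adjusted p = 0.433) with the controls exchanged. That of Meg3 was -1.26 ± 0.34 SE and 0.04 ± 0.34 SE, and that of Rian turned from -0.76 ± 0.31 SE to 0.70 ± 0.31 SE, so both depended on which control labels were used.

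Of 7 further genes of the imprinted gene network, all were tested and 1 was called, Gatm, an enzyme of creatine synthesis, which was higher (log2 fold change 1.28 ± 0.20 SE, adjusted p = 0.000368 by edgeR; 9.56 to 13.4 against 15.9 to 39.2 CPM). The other 6, Cdkn1c, Dcn, Gnas, Mest, Ndn and Sgce, were within 0.26 of 0 on the log2 scale. Of 36 more imprinted genes 22 were tested, 1 was called higher and 5 lower, with a median log2 fold change of -0.20. Over all tested genes 8.54% were called higher and 7.16% lower. The gene that rose was Commd1, a regulator of copper transport (0.70 ± 0.13 SE, adjusted p = 0.00107). Those that fell were led by Zim1, a zinc-finger gene beside Peg3 (-1.42 ± 0.35 SE, adjusted p = 0.00833), then Nap1l5 (-1.06, adjusted p = 0.0108), Zrsr1, which lies inside Commd1 (-0.78, adjusted p = 0.000123), and Peg13, a noncoding RNA inside Trappc9 (-0.67, adjusted p = 0.000747). Commd1 and Zrsr1 thus moved in opposite directions at the same locus. The groups did not overlap for either gene, as for 22.7% of all tested genes. The counting is not stated to use strand, so reads from Zrsr1 and Commd1 cannot be told apart where they overlap. The same holds for Peg13 and Trappc9.

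**Figure D4:**
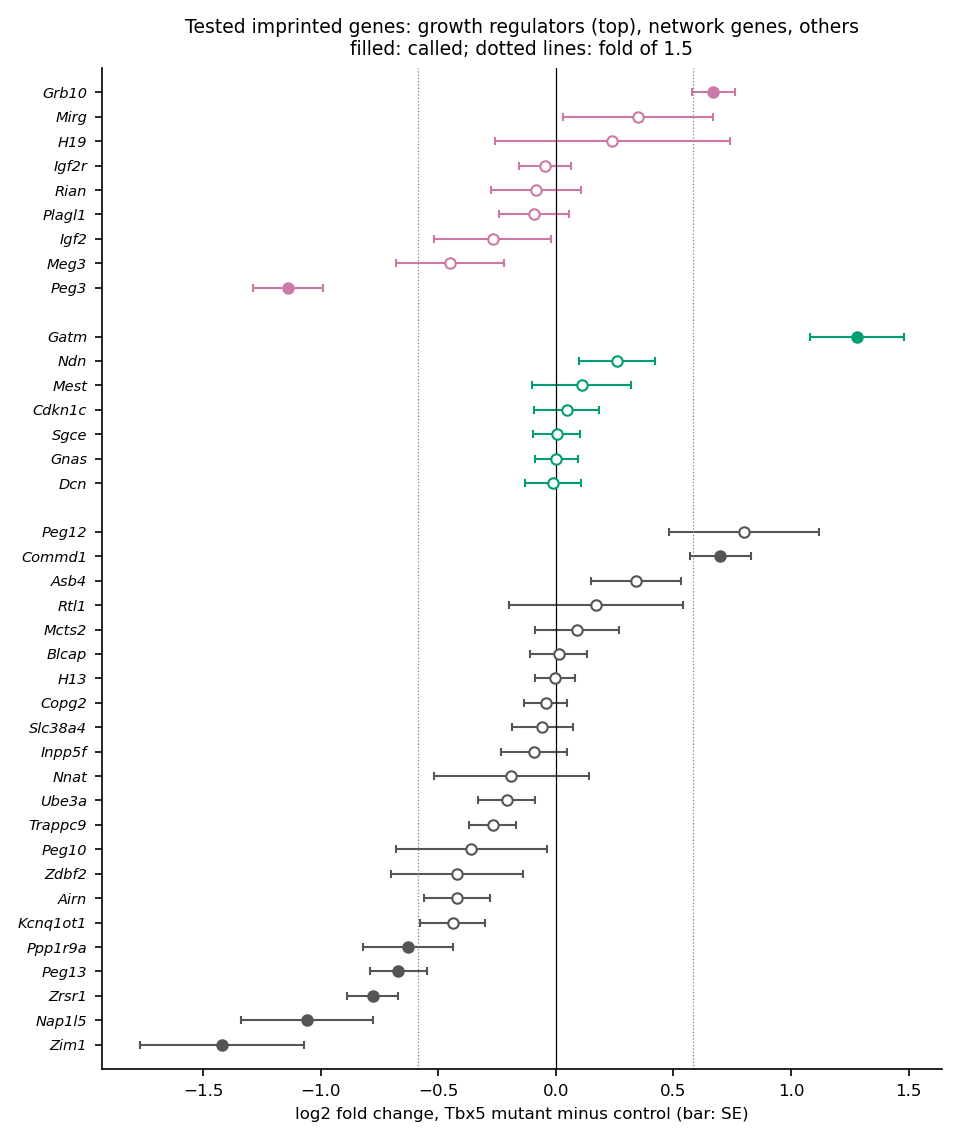
Log2 fold change of Tbx5 mutant over control libraries with its SE for the 9 tested growth regulators, 7 network genes and 22 other imprinted genes; filled points are called and dotted lines mark a fold of 1.5. Peg3 (-1.14) and Zim1 (-1.42) lie far left, Gatm (1.28) far right, and most points are near 0.

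In the Peg3 domain, Zim1 was at 7.72, 6.95, 3.61 and 2.3 CPM in controls M1, M2, F1 and F2 and at 1.31 to 2.84 CPM in mutants, with 5 to 18 reads per mutant. The nearest tested genes on the sides of the domain, Zfp28 (-0.15, adjusted p = 0.507) and Zfp954 (0.025, adjusted p = 0.909), were not called. Beside Grb10, Ikzf1, a lymphoid transcription factor, was higher (0.66 ± 0.20 SE, adjusted p = 0.0251), as was Fignl1, a DNA repair gene (2.11 ± 0.25 SE, adjusted p = 4.31e-05), while Cobl (-0.32, adjusted p = 0.121) and Egfr (0.018, adjusted p = 0.931) were not called. Ikzf1 was no longer called in 4 of 21 alternatives. Of 25 neighbours in all, 3 were called higher and 1 lower, beside 8.54% and 7.16% of all tested genes.

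Of 14 tested genes that handle IGF2 or carry its signal, 1 was called higher and 1 lower. The shares over all tested genes were 8.54% and 7.16%. The binding protein Igfbp5 was at 1118 to 1206 CPM in controls and 506 to 797 CPM in mutants (log2 fold change -0.91 ± 0.12 SE, adjusted p = 0.00014 by edgeR). Its groups did not overlap, as for 22.7% of all tested genes. Igfbp7, a secreted protein of the vessel wall, was at 119 to 239 and 224 to 403 CPM (0.89 ± 0.20 SE, adjusted p = 0.004). Igf1 (0.25), Igf1r (-0.26), Insr (-0.26) and Irs1 (-0.52) were not called, Irs1 with an adjusted p of 0.00235 but a fold under 1.5. Igfbp2 had no reads.

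Of 14 tested factors that lay down, keep or remove DNA methylation or repression at imprints, 1 was called higher and 2 lower. The shares over all tested genes were 8.54% and 7.16%. Uhrf1, which brings the maintenance methyltransferase to newly copied DNA, was at 1.1 to 1.99 CPM in controls and 5.02 to 13.3 CPM in mutants (log2 fold change 2.64 ± 0.32 SE, adjusted p = 5.45e-05 by edgeR). Tet1, which oxidizes methylated cytosine, fell from 48.5 to 65 CPM in controls to 17.5 to 36 CPM in mutants (-1.13 ± 0.16 SE, adjusted p = 0.000175). Its relative Tet2 fell as well (-0.62 ± 0.15 SE, adjusted p = 0.00615), but was no longer called in 6 of 22 alternatives because its fold came under 1.5. Zfp57 (0.32, adjusted p = 0.177), Trim28 (-0.012, adjusted p = 0.926) and Ctcf (-0.14, adjusted p = 0.227) were not called by edgeR.

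Markers of several cell types moved with the groups. Over all tested genes, 8.54% were called higher and 7.16% lower. Of 8 fibroblast genes 4 were called higher, the collagens Col1a1, Col1a2 and Col3a1 and Postn, and the summed level rose from 3872 to 5205 CPM in controls to 7073 to 10272 CPM in mutants, while Pdgfra, Dcn, Lum and Tcf21 were not called. All 4 cycling genes were higher (10.6 to 25 against 67.3 to 234 CPM), as were all 3 tested of 6 leukocyte genes (128 to 186 against 208 to 293 CPM), with Cd3e near 0. Of 5 atrial cardiomyocyte genes 3 were lower. None of 5 endothelial, 6 epicardial and 2 tested Schwann genes was called, 2 of 6 smooth muscle genes were higher, and of 2 tested ventricular genes Myl2 was higher (Irx4 was at or near 0). Adipocyte genes were too low to test (0 to 20.8 CPM in sum), and in the blood list Alas2 was higher while Hba-a1 and Hba-a2, the listed globin genes in the table, were at 0. The labels state that globin RNA was depleted from the samples. The part of these markers in the changes of Peg3, Grb10 and the other genes was not tested.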

How the data were processed

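Poly(A) or ribosome-depleted RNA, both named in the labels, of 10 right atria was sequenced. The processing notes of the submitters name FastQC, TopHat2 2.0.11, featureCounts, DESeq2 and mm10, without roles; the annotation used for counting and its strand setting are not given in the sources used here. The authors deposited a table with raw read counts per gene, which were used here, and with a signal per gene and library, each count divided by a size factor of that library, which was not used. The deposited columns of the authors' own comparison (log2 fold change with its error, test score, p-value and adjusted p-value, and fold change as a linear ratio) were not used.

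Counts were filtered by expression, scaled by TMM and compared by the quasi-likelihood test of edgeR 4.0.16 in R 4.3.3 (4 control, 6 Tbx5 mutant, no covariate, prior count 0.125), with p-values adjusted over all 13084 genes. The SE of a log2 fold change is its size over the square root of F. Ratios of genes used a pseudocount of 1 read and two-sided exact permutation tests (scipy 1.17.1), which for single genes compared mean log2 CPM, adjusted over 6 ratios. Lengths and positions came from GENCODE (GRCm38) and promoters from RefSeq. Likeness was taken over genes with a mean count of at least 50. Scripts were tested on simulated data. The limit of a count of 0 is 3 reads (4.23e-05% to 5.26e-05% of a library), for counting error only. No 2 libraries of a group agreed within sampling noise (chi-square per degree of freedom of at least 3.777). The labels do not state that each library is a separate animal, so p-values measure the spread between these libraries. Alternatives are given in the closing section.

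All members are named; of each gene list, the called genes with the largest changes, up to 4 in each direction. The members and lists were chosen with earlier results of these data known. Genes of the lists that are named without a call, and Usp29, were picked after their values were seen. The values of 1 neighbour gene are not reported here.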

Additional observations from a re-analysis of the deposited data

Results flagged for a closer look

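Of 28 groups of values of the members examined for a library far from the rest, 2 had such a library, and chance gives 1.4. Mirg was at 2.18 CPM in mutant M3, with the next mutant at 1.6 and the lowest at 1.31 CPM. That value is 8 reads in the library with 38.9% Rn45s reads. Igf2 was at 167 CPM in control F1, with the next control at 129 and the lowest at 126 CPM. Without control F1 the log2 fold change of Igf2 was -0.16 (adjusted p = 0.718 by edgeR), against -0.27 with it.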

How the results depend on the processing

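Peg3 and Grb10 kept their direction and their call in all 22 alternatives (log2 fold change -1.24 to -0.90 and 0.63 to 0.77). Counts of called genes moved with the thresholds: a mean count of at least 50 gave 1285 genes, 654 of them higher; no fold threshold gave 4101 (1967 lower, 2134 higher); and a fold over 2 gave 911 (367 lower, 544 higher), with 1 member called and 0 higher. Leaving out each library in turn gave 1 or 2 members called lower, the second being Meg3 without mutant F1. The log2 fold change of H19 turned to -0.17 with limma, -0.12 with sex as labelled and -0.10 with sex exchanged in the controls, and ran from -0.34 to 0.42 as libraries were left out. Rian turned to 0.15, Igf2r to 0.20 and Plagl1 to 0.016 with the transcript-length trend removed, and Rian (-0.22 to 0.10) and Plagl1 (-0.18 to 0.022) turned without control M2. The cause was not tested. Leaving out each library gave 0.31 to 0.51 for the log2 ratio of Rian to Meg3 and 0.58 to 1.13 for Mirg to Meg3, and both passed adjustment without mutant F1 (0.0476, exact permutation). Libraries with the same label and number did not deviate together (r -0.047 to 0.0358 over 4 pairs). With the control sex labels exchanged, r was 0.276 (control M1 with mutant F1), 0.0298 (M2 with F2), 0.265 (F1 with M1) and 0.223 (F2 with M2). The 20 pairs of unlike labels, these included, ran from -0.286 to 0.276 with a mean of 0.0013. Whether libraries are paired under exchanged labels was not tested. A replicate block by the labels as given gave 1962 called genes, 1772 shared. Few reads limit Mirg and Zim1, and Dlk1 was not detectable at this depth in 8 libraries.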

Other observations

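Usp29, the gene that starts beside Peg3 on the opposite strand, had too few reads to be tested and is named after its values were seen. It was at 1.25 to 1.76 CPM in controls and 0.171 to 1.16 CPM in mutants, so its groups did not overlap in CPM. In reads the groups met, with 8 to 13 per control and 1 to 8 per mutant. Of all tested genes, 22.7% also had groups without overlap in CPM. The long noncoding RNA Kcnq1ot1, which is imprinted and overlaps Kcnq1, was at 363 to 460 CPM in controls and 221 to 351 CPM in mutants, again without overlap. Its log2 fold change was -0.44 ± 0.14 SE (adjusted p = 0.0256 by edgeR), a fold under 1.5. Reads of Kcnq1ot1 and Kcnq1 cannot be told apart where they overlap, since the counting is not stated to use strand.

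Meg3 was at 22.9 and 27.5 CPM in the controls with Xist reads and at 15.4 and 16.6 CPM in those with Ddx3y reads. In the mutants Meg3 was at 14.9 to 24.1 CPM in the libraries with Xist reads and at 9.43 to 14.9 CPM in those with Ddx3y reads. The same controls were apart for Rian (32.7 to 38.7 against 20 to 23 CPM) and Plagl1 (86.4 to 98.6 against 66.1 to 71.2 CPM). In the mutants Rian overlapped (22.4 to 33.9 and 19 to 30.8 CPM). Plagl1 there ran the other way (50.6 to 75.3 CPM with Xist reads, 77.1 to 93.4 CPM with Ddx3y reads). Whether these splits reflect sex was not tested.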
